A study of Homo sapiens with 6 samples.

Results

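The small nucleolar RNA host genes are genes whose introns carry small nucleolar RNAs (snoRNAs). They were taken here as every row of the expression table with a symbol made of SNHG and a number, together with GAS5, ZFAS1 and EPB41L4A-AS1. This gave 29 of the 25662 genes in the table, and 26 of them were among the 12157 genes with a mean of at least 1 TPM (an abundance scaled to transcript length and to the total of the library) that were tested. In the gene annotation (GENCODE release 29, GRCh38, with guests missing there taken from RefSeq, as were all those of GAS5) each of the 29 held at least 1 snoRNA or Cajal body RNA inside its span.

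A host gene is transcribed by RNA polymerase II and spliced, and each snoRNA is trimmed out of an excised intron while proteins assemble on it. SnoRNAs of the C/D class guide 2′-O-methylation and those of the H/ACA class guide pseudouridylation, mostly of ribosomal RNA, and a few are needed to cut the ribosomal RNA precursor. Cajal body RNAs (scaRNAs) guide the same changes in spliceosomal RNAs. The spliced exons that remain are long noncoding RNAs, several of which start with a run of pyrimidines like the mRNAs of ribosomal proteins, are loaded on ribosomes and are then destroyed by nonsense-mediated decay. HCT116 is a human colorectal carcinoma cell line, and several spliced host RNAs are studied in colorectal cancer cells as RNAs tied to growth.

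RNA was sequenced from HCT116 cells grown in serum and transfected with a control siRNA (control siRNA, 3 libraries) or with an siRNA against RRN3 (RRN3 siRNA, 3 libraries). RRN3, also called TIF-IA, brings RNA polymerase I to the ribosomal RNA genes, and the comparison asks which transcripts differ when it is depleted. No source used here gives the siRNA sequences or the time after transfection. The labels call the RNA poly(A) RNA and also describe removal of ribosomal RNA followed by random priming, so how far RNAs without a poly(A) tail, such as the snoRNAs themselves, were captured is not known.

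RRN3 was 20.9, 14.7 and 14.1 TPM in control siRNA replicates 1, 2 and 3 and 2.70, 1.22 and 0.925 TPM in RRN3 siRNA replicates 1, 2 and 3. Its mean was 9.73% of control (log2 change -2.79, SE 0.27, limma adjusted p = 0.000301), and an exact two-sided permutation test gave p = 0.1, the smallest that 3 against 3 allows. RRN3 has near-identical pseudogene copies between which reads can be split. The libraries summed to 991305 to 992042 TPM with 17361 to 18632 genes above 0, and TPM keeps no depth. Both libraries numbered 1 held relatively more GC-poor transcripts, and the deviation of a gene from its group mean correlated with its GC content (across genes, which are not replicates) at -0.46 in control siRNA and -0.51 in RRN3 siRNA. The correlation went the other way in control siRNA replicate 2 (0.42) and RRN3 siRNA replicate 3 (0.46). In control siRNA replicate 3 and RRN3 siRNA replicate 2 it was 0.07 and 0.17. The epithelial markers summed to 5749 to 6833 TPM in control siRNA and 12672 to 13826 TPM in RRN3 siRNA, and 3 of the 7 rose (KRT8, KRT18 and KRT19). EPCAM, CDH1, CLDN7 and ELF3 did not pass, with means of 108%, 126%, 93.7% and 98.7% of control. The 4 immune markers in the table summed to at most 0.970 TPM, with 1 listed at 0, and the 5 endothelial markers to at most 0.721 TPM. Of the 5 fibroblast markers 3 were listed at 0 in all libraries, and the rest summed to 8.64 to 10.8 TPM in control siRNA and 6.89 to 7.79 TPM in RRN3 siRNA, nearly all from COL1A1. The part of the rise of these keratins (KRT8, KRT18 and KRT19) in the host gene values was not tested.

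Of the 26 tested host genes 6 fell, 2 rose and 18 did not pass an adjusted p of 0.05 (limma on log2(TPM + 1), p-values adjusted by Benjamini-Hochberg over all genes tested). The 8 called make 30.8% of the tested host genes, and the background of calls over all genes tested was 30.3%. The 6 that fell make 23.1% against a background of 19.0%, and the 2 that rose make 7.69% against 11.2%, so the host genes were called about as often as other genes. The genes that fell were SNHG19, SNHG25, SNHG7, SNHG6, SNHG1 and SNHG3, and those that rose were SNHG22 and SNHG29. Over all genes tested 1367 rose and 2312 fell. That split became 2017 and 2115 with median-of-ratios scaling and 2205 and 2284 with quantile normalization, while for the host genes 1 rose and 6 fell with the first and 3 rose and 6 fell with the second. The median log2 change of the host genes was -0.21 and that of all genes tested was -0.05, and 69.2% of the host genes lay below 0 against 55.2% of all genes. The groups did not overlap in 8 host genes that were lower with RRN3 siRNA (background 26.9%) and 2 that were higher (background 17.9%). In cells measured in bulk, fewer cells with an RNA and less of it per cell cannot be told apart. Changes on the log2(TPM + 1) scale understate those of low genes.

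**Figure D1:**
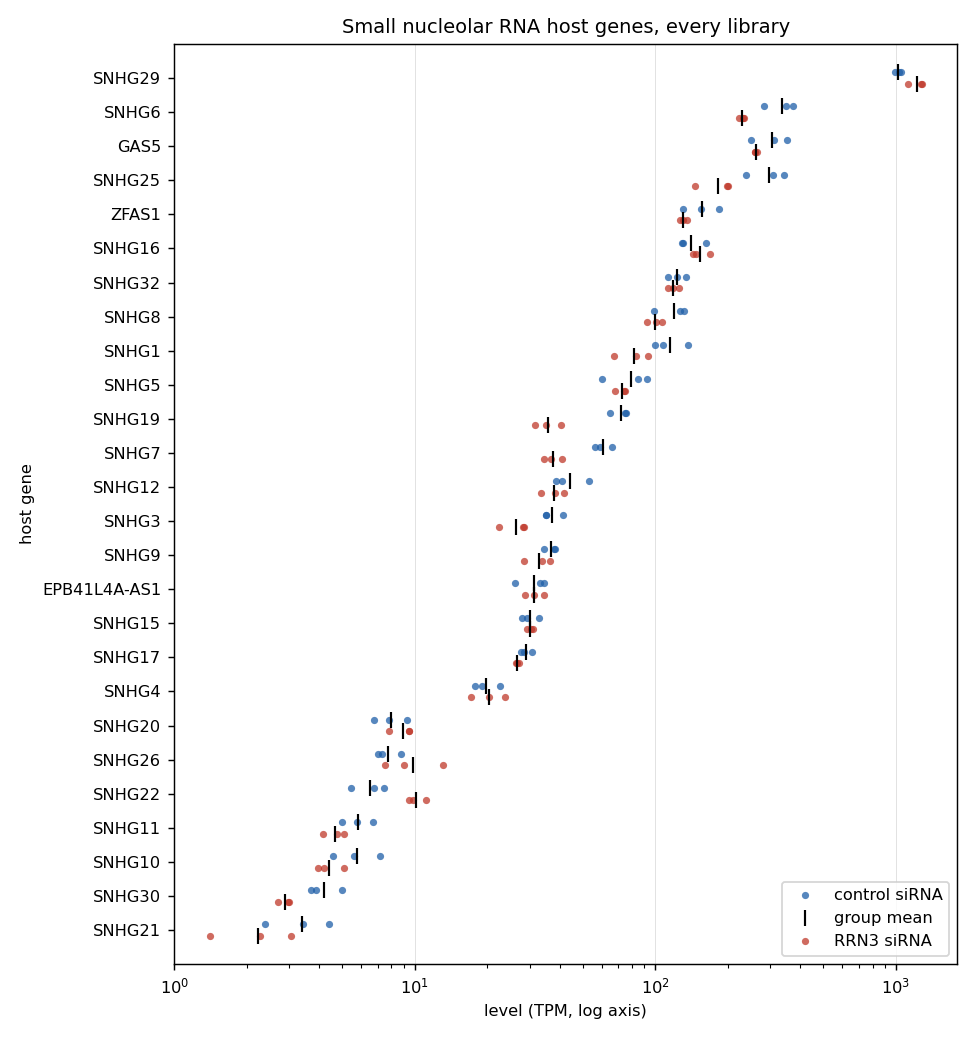
Level of each of the 26 tested host genes in every library, in TPM on a log axis, with genes in rows ordered by control mean; points are libraries (blue control siRNA, red RRN3 siRNA) and black ticks are group means. SNHG29 lies near 1000 TPM, well apart from SNHG6 and GAS5, and the red points of SNHG19 and SNHG7 lie wholly to the left of the blue ones.

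Levels spanned a wide range in control cells. SNHG29 was at 1024 ± 32.6 TPM (SD, n = 3), followed by SNHG6 at 335 ± 46.7, GAS5 at 305 ± 52.3 and SNHG25 at 297 ± 52.9 TPM, and the last 3 did not differ beyond their spread. At the low end SNHG31 and SNHG28 stayed at or below 0.693 TPM in every library and SNHG14, the long RNA of the Prader-Willi region that runs antisense to UBE3A, at or below 0.0722 TPM, and these 3 were not tested. Summed over all host genes the libraries held 3360, 2768 and 3159 TPM in control siRNA and 2756, 2954 and 2925 TPM in RRN3 siRNA, so the groups overlapped. Without SNHG29 the sums were 2307, 1779 and 2129 TPM against 1631, 1672 and 1654 TPM, and every RRN3 siRNA library lay below every control library. SNHG29 is among the 2 host genes that rose, and the 6 that fell stay in these sums. The separation therefore follows in part from those calls and adds no support to them. SNHG29 made up 31.3%, 35.7% and 32.6% of the summed level in control siRNA and 40.8%, 43.4% and 43.5% in RRN3 siRNA.

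The guests of the host genes on which the results turn are printed because they are the RNAs that these genes are known for. Sequences of the GRCh38 reference are given 5′ to 3′ on the strand of the gene. In the C/D RNAs the capitals mark the motifs TGATGA near the 5′ end and CTGA near the 3′ end, the letters of boxes C and D, and SNORD99 and SNORD1C held only the CTGA. In the H/ACA RNAs they mark the ACA that ends 3 bases before the 3′ end.
SNORD60, inside SNHG19, chr16:2155023-2155105, minus strand: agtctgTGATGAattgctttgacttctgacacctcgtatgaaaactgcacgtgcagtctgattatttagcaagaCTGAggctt
SNORD104, inside SNHG25, chr17:64146083-64146152, plus strand: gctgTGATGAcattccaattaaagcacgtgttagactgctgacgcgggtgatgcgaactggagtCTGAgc
SNORA50C, inside SNHG25, chr17:64146339-64146471, plus strand: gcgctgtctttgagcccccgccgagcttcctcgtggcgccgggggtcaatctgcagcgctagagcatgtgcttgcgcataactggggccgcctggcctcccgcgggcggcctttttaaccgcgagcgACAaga
SNORA17A, inside SNHG7, chr9:136726747-136726879, minus strand: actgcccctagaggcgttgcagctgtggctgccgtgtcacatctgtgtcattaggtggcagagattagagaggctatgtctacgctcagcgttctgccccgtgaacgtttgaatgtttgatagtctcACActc
SNORD25, inside SNHG1, chr11:62855564-62855632, minus strand: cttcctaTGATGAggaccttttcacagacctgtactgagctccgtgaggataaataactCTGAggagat
SNORD49A, inside SNHG29, chr17:16440036-16440106, plus strand: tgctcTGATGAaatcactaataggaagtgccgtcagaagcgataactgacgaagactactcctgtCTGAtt
SNORD49B, inside SNHG29, chr17:16439505-16439576, plus strand: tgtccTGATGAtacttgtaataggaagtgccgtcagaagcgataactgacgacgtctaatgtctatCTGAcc
SNORD99, inside SNHG12, chr1:28578749-28578822, minus strand: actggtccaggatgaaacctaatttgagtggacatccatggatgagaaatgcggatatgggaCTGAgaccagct
SNORD1C, inside SNHG16, chr17:76558791-76558868, plus strand: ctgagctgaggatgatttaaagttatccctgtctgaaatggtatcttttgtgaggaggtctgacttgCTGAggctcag
SNORD49A and SNORD49B share an identical run of 35 bases in the middle, and neither has a row in the table, while the longest run shared by SNORA17A and its neighbour SNORA17B in SNHG7 was 7 bases.

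Hosts of C/D snoRNAs alone were 10 of the 26 tested, and 3 of them fell, 1 rose and 6 did not pass, with a median log2 change of -0.17. Beside these counts and those of the other guest classes below, 19.0% of all genes tested fell and 11.2% rose. SNHG19 (ENSG00000260260, chr16:2154797-2155358, minus strand), a short host with SNORD60 as its one guest, had the largest estimated fall among the host genes. It was 74.9, 64.9 and 75.4 TPM in control siRNA and 31.6, 35.0 and 40.4 TPM in RRN3 siRNA. Every RRN3 siRNA library lay well below every control library, and the mean was 49.7% of control. The log2 change was -0.99 (SE 0.11, limma adjusted p = 0.000625), and SNHG19 fell in all 17 alternative analyses.

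SNHG6 (ENSG00000245910, on the minus strand of chromosome 8), which carries a single C/D guest, was 372, 282 and 350 TPM in control siRNA and 233, 223 and 232 TPM in RRN3 siRNA. The RRN3 siRNA libraries were close together (SD 5.38) and lay below a wider control group (SD 46.7), and SNHG6 fell by 0.53 on the log2 scale (SE 0.11, limma adjusted p = 0.00716). It fell in all 17 alternatives. Exons of MCMDC2 on the other strand cover 29.3% of its exonic bases, but MCMDC2 itself was at most 0.0903 TPM.

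SNHG1 (ENSG00000255717, chr11:62851988-62855914, minus strand) is the classic case of a gene whose introns, not exons, are conserved, and it held 9 annotated snoRNA loci, among them SNORD22 and SNORD25 to SNORD31. It was 136, 107 and 100.2 TPM in control siRNA and 93.5, 83.2 and 67.5 TPM in RRN3 siRNA. The groups were apart by little, since the lowest control library was 100.2 and the highest RRN3 siRNA library 93.5. The log2 change was -0.49 (SE 0.15, limma adjusted p = 0.0434), and the call held in 10 of 17 alternatives. It was lost without control siRNA replicate 1, 2 or 3 (limma adjusted p = 0.112, 0.102 and 0.0512) and when RRN3 siRNA replicate 2 or 3 was left out (0.103 and 0.108), and also with no filter on low values (0.0979) and with no variance trend (0.0728).

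SNHG29 (ENSG00000175061, named LRRC75A-AS1 in the annotation, chr17:16438822-16478678, plus strand) hosts SNORD49A, SNORD49B and SNORD65 and was the most abundant host gene. It was 1053, 989 and 1030.4 TPM in control siRNA and 1125, 1283 and 1272 TPM in RRN3 siRNA. It rose to 120% of control (log2 change 0.26, SE 0.08, limma adjusted p = 0.0372), with no overlap between groups. The direction was up in all 17 alternatives and the call held in 8. It was lost with median-of-ratios scaling (limma adjusted p = 0.140) and when TPM was rescaled without mitochondrial and ribosomal protein genes (0.0617), and also without control siRNA replicate 1, 2 or 3 (0.0549, 0.0936 and 0.0918) or RRN3 siRNA replicate 2 or 3 (0.172 and 0.118), with no filter on low values (0.0746) and with no variance trend (0.106). LRRC75A on the other strand covers 12.0% of the exonic bases of SNHG29 and was 15.97, 8.01 and 13.4 TPM against 10.02, 10.1 and 10.8 TPM (log2 change -0.20, limma adjusted p = 0.551).

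The other 6 C/D hosts did not pass. ZFAS1, the antisense RNA of ZNFX1 and host of the SNORD12 family, was 184, 130.2 and 155 TPM in control siRNA and 126, 130.4 and 135 TPM in RRN3 siRNA (log2 change -0.24, limma adjusted p = 0.173). SNHG16, host of the SNORD1 family, was 163, 129.9 and 129 TPM against 168, 148 and 143 TPM (0.13, limma adjusted p = 0.442). The groups of both genes overlapped. SNHG32, which the annotation lists as C6orf48 and as protein-coding, was 134, 113 and 123 TPM against 112, 125 and 119 TPM, and SNHG5, host of SNORD50A and SNORD50B, was 84.9, 59.9 and 92.3 TPM against 68.3, 75.1 and 74.2 TPM. SNHG26 was 8.74, 7.05 and 7.34 TPM against 13.1, 9.003 and 7.54 TPM. In these 3 the groups overlapped as well. SNHG30, host of SNORD7, was 5.00, 3.90 and 3.72 TPM against 2.998, 2.70 and 2.98 TPM (log2 change -0.41, limma adjusted p = 0.0839), with every RRN3 siRNA library below every control library.

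Hosts of H/ACA snoRNAs alone were 9, of which 2 fell, none rose and 7 did not pass, with a median log2 change of -0.17. SNHG7 (ENSG00000233016, chr9:136721366-136728184, minus strand), host of SNORA17A and SNORA17B, was 66.0, 58.7 and 56.3 TPM in control siRNA and 34.5, 37.0 and 40.8 TPM in RRN3 siRNA. The groups were wide apart and the mean was 62.0% of control. SNHG7 fell by 0.67 on the log2 scale (SE 0.10, limma adjusted p = 0.00200) and fell in all 17 alternatives. DIPK1B on the other strand covers 25.2% of its exonic bases and was 10.1, 11.4 and 10.2 TPM against 8.15, 8.12 and 8.32 TPM (limma adjusted p = 0.0713). No source used here states the strand setting of the counting, so reads of genes that overlap on opposite strands cannot be told apart.

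SNHG3 (ENSG00000242125, chr1:28505980-28510892, plus strand) hosts SNORA73A and SNORA73B, H/ACA RNAs known for a role in cutting the ribosomal RNA precursor. It was 41.4, 35.0 and 35.2 TPM in control siRNA and 28.5, 28.1 and 22.5 TPM in RRN3 siRNA. All RRN3 siRNA libraries were lower than all control libraries (log2 change -0.48, SE 0.13, limma adjusted p = 0.0218). The call held in 13 of 17 alternatives and was lost without control siRNA replicate 1 or 2 (limma adjusted p = 0.0686 and 0.0515) or with RRN3 siRNA replicate 2 or 3 left out (0.0534 and 0.0604). RCC1, the nucleotide exchange factor of RAN, starts 37 bases away on the same strand and shares 5.92% of the exonic bases of SNHG3. RCC1 was 134, 128 and 117 TPM against 93.9, 82.2 and 87.4 TPM (log2 change -0.52, SE 0.09, limma adjusted p = 0.00321), so this pair of overlapping genes was lower together.

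Among the other 7 H/ACA hosts only SNHG17 had groups that did not overlap. SNHG17, host of SNORA71 copies, was 30.6, 27.7 and 28.4 TPM in control siRNA and 27.2, 26.6 and 26.4 TPM in RRN3 siRNA (log2 change -0.11, limma adjusted p = 0.409). SNHG8, host of SNORA24, was 132, 99.0 and 127 TPM against 92.1, 100.2 and 107 TPM (-0.25, limma adjusted p = 0.167). SNHG9 was 38.3, 34.4 and 38.0 TPM against 28.4, 33.9 and 36.5 TPM. In both, the lowest control library fell within the range of the RRN3 siRNA libraries. EPB41L4A-AS1 was 33.1, 26.1 and 34.4 TPM against 34.4, 31.2 and 28.6 TPM, and SNHG15 was 32.7, 29.3 and 28.0 TPM against 29.2, 30.5 and 31.1 TPM. SNHG4, host of SNORA74A, was 22.6, 17.8 and 18.9 TPM against 23.6, 20.4 and 17.1 TPM. The means of these 3 were 101%, 101% and 103% of control, with intervals of the log2 change of -0.29 to 0.32, -0.21 to 0.24 and -0.31 to 0.38. SNHG11 was 6.69, 4.97 and 5.75 TPM against 4.14, 5.06 and 4.73 TPM.

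Hosts of both classes were GAS5, SNHG12 and SNHG25, and 1 fell and 2 did not pass (median log2 change -0.21). SNHG25 (ENSG00000266402, chr17:64145970-64146476, plus strand), a gene of 507 bases that holds SNORD104 and SNORA50C, was 309, 239 and 343 TPM in control siRNA and 146, 201 and 199 TPM in RRN3 siRNA. It fell to 61.2% of control (log2 change -0.70, SE 0.17, limma adjusted p = 0.0149), and no library overlapped with the other group. The call held in 16 of 17 alternatives and was lost without control siRNA replicate 3 (limma adjusted p = 0.0582). In the annotation SNORD104 lies in an intron and SNORA50C within an exon, so reads of SNORA50C cannot be told apart from those of SNHG25. The same limit applies to other hosts. Exons of all annotated transcripts together cover 551 of 551 bases of SNHG9, 3756 of 3927 of SNHG1 and 4266 of 4595 of SNHG12. At least some guests of these hosts therefore lie in or overlap an exon of some transcript.

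GAS5, named for its accumulation in growth-arrested cells and host of 11 annotated snoRNAs, was 353, 249 and 311 TPM in control siRNA and 265, 261 and 260.02 TPM in RRN3 siRNA. The 3 RRN3 siRNA libraries differed by little (SD 2.99) and lay inside the control range (log2 change -0.20, SE 0.12, limma adjusted p = 0.251). Without control siRNA replicate 2 it fell by 0.34 (limma adjusted p = 0.0265), and so did SNHG8 (adjusted p = 0.0298) and ZFAS1 (adjusted p = 0.0392). SNHG12 was 52.8, 38.8 and 41.0 TPM against 41.7, 38.4 and 33.6 TPM (-0.21, limma adjusted p = 0.302). Control siRNA replicate 2 was the lowest control library in 20 of the 26 tested host genes, whereas it was so in 25.3% of all genes tested. Control siRNA replicate 1 was the highest in 20, and the SD was larger in control siRNA than in RRN3 siRNA in 22. The shares of all genes tested were not computed for these last 2 counts. Many host genes thus deviated together within the control group, so their calls are not independent of each other.

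Hosts of Cajal body RNAs alone were 4, of which 1 rose, none fell and 3 did not pass (median log2 change -0.08). SNHG22 (ENSG00000267322, chr18:49814023-49851059, plus strand), host of SCARNA17, was 6.74, 5.43 and 7.46 TPM in control siRNA and 9.86, 9.42 and 11.2 TPM in RRN3 siRNA. It rose to 155% of control with no overlap (log2 change 0.57, SE 0.15, limma adjusted p = 0.0245). The call held in 13 of 17 alternatives and was lost without control siRNA replicate 1 or 2 (limma adjusted p = 0.0554 and 0.0753) or with RRN3 siRNA replicate 2 or 3 left out (0.0701 and 0.0775). MYO5B, a myosin motor on the other strand that covers 8.83% of its exonic bases, was 20.3, 18.2 and 16.2 TPM against 28.1, 22.8 and 22.4 TPM (log2 change 0.40, limma adjusted p = 0.0529), and its groups did not overlap either. SNHG20 was 9.28, 7.81 and 6.76 TPM against 9.48, 9.42 and 7.85 TPM, SNHG10 was 5.57, 4.58 and 7.17 TPM against 3.95, 5.07 and 4.21 TPM, and SNHG21 was 4.38, 2.39 and 3.43 TPM against 3.05, 2.27 and 1.40 TPM. The groups of all 3 overlapped.

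**Figure D2:**
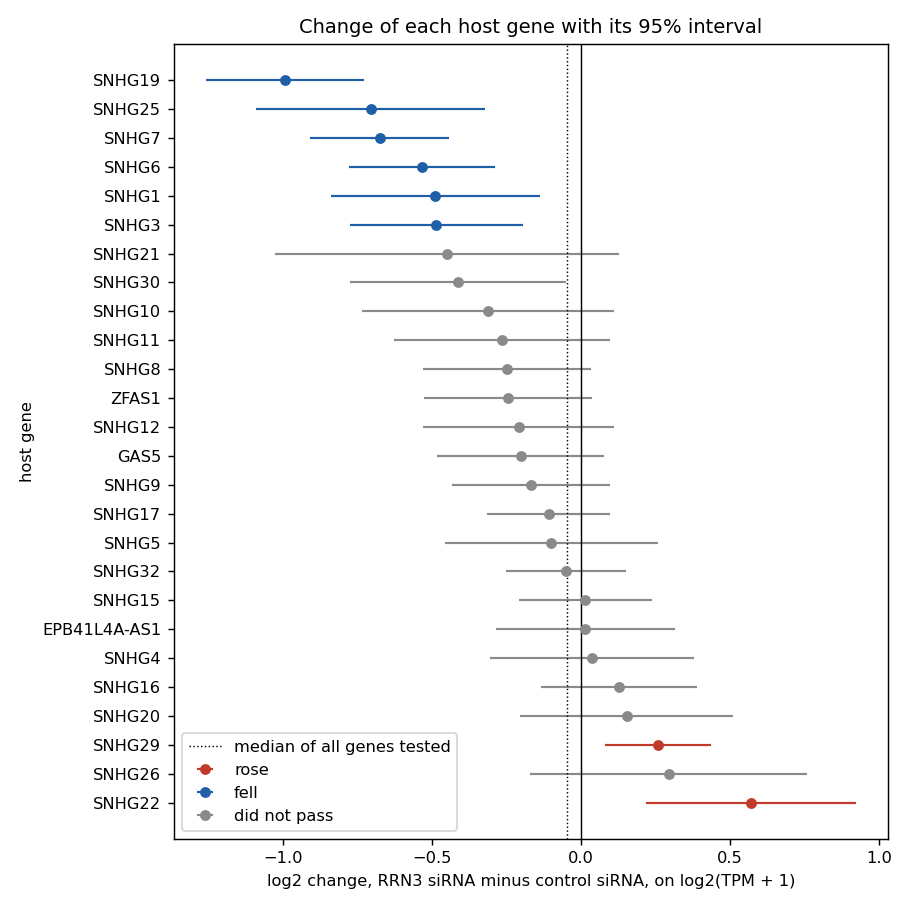
Log2 change of each tested host gene, RRN3 siRNA minus control siRNA on log2(TPM + 1), with its 95% interval from the limma fit; genes are in rows and colours give the call. The intervals run from SNHG19 at -0.99 to SNHG22 at 0.57, and the dotted line marks the median of all genes tested at -0.05.

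**Figure D3:**
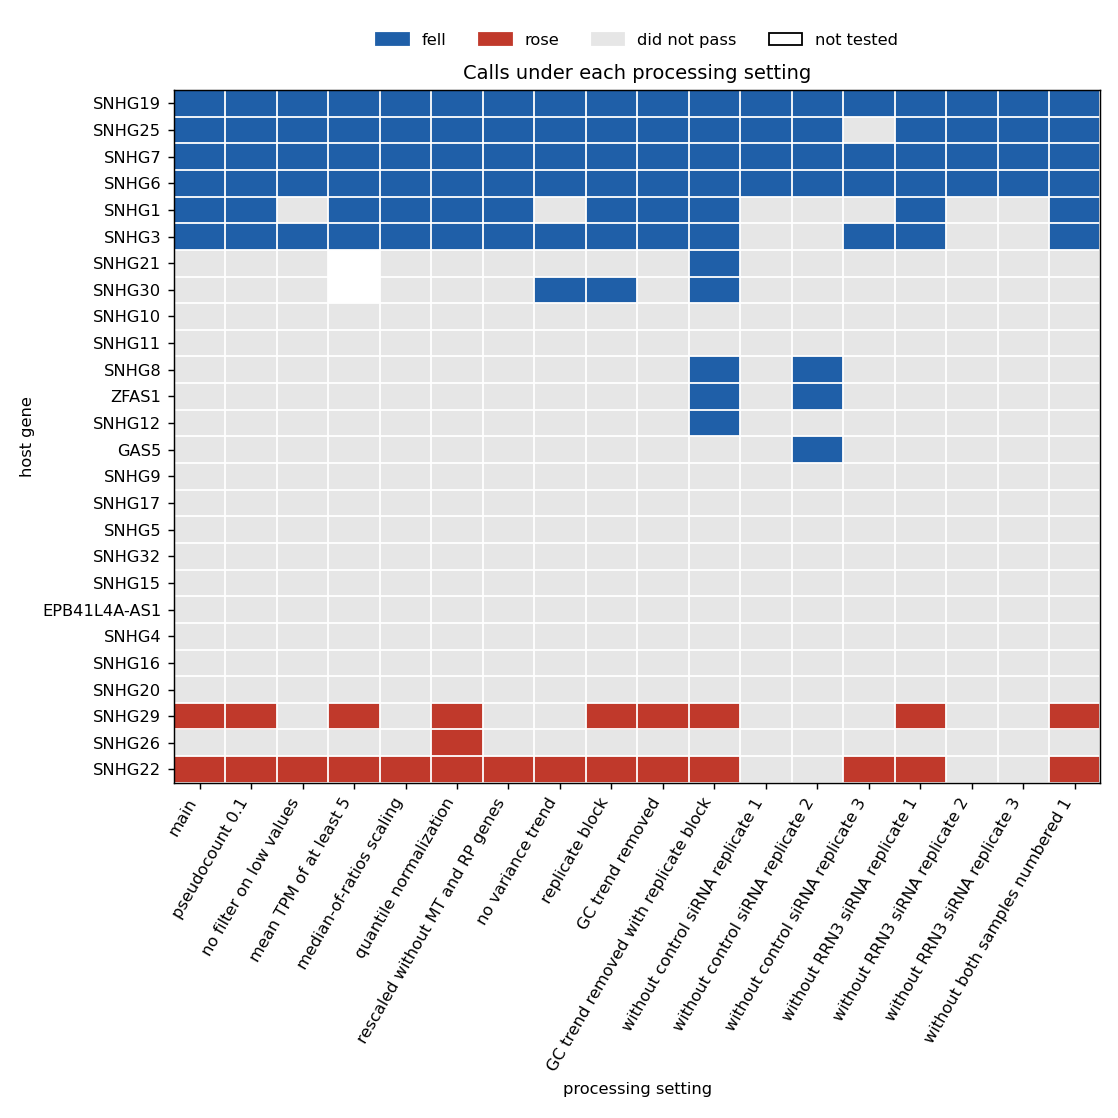
Call of each tested host gene (rows) in the main analysis and under each of 17 alternatives (columns), blue for fell, red for rose and grey for did not pass. SNHG19, SNHG7 and SNHG6 are blue in every column, SNHG25 in all but 1, and the red squares of SNHG22 and SNHG29 are interrupted where single libraries are left out.

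The 6 host genes that fell came from different places and guest classes. They lay on 6 different chromosomes and held between 1 and 9 guests. Their GC content, over the pooled sequences of all annotated transcripts of a gene, was 41.3 to 61.2%, and the 18 that did not pass had 41.7 to 65.0%. Over the 26 tested host genes, which share the same libraries, Spearman's rho of the log2 change was 0.42 with exonic length, -0.09 with GC content, 0.07 with the number of guests and -0.14 with control level. The shortest hosts, SNHG25 with 278 exonic bases and SNHG19 with 342, both fell, while SNHG9 with 551 bases did not pass (limma adjusted p = 0.319). SNHG3 and SNHG12 lie 67645 bases apart on chromosome 1, and SNHG17 and SNHG11 lie 11224 bases apart on chromosome 20. Of these neighbours only SNHG3 fell.

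Several host genes are known to belong to the transcripts that start with a C and a run of pyrimidines, the motif through which LARP1 and mTOR act on mRNAs of ribosomal proteins. Of 25 host genes with a promoter window in RefSeq (GRCh38.p14), 6 had a C at the annotated start followed by at least 4 bases that were C or T. This was 24.0%, against 4.07% of 35116 windows of all genes and 35.1% of 57 windows of protein-coding snoRNA hosts. The starts are printed because they are the feature by which these RNAs resemble ribosomal protein mRNAs, and the capitals mark the unbroken run of C and T.
SNHG12, chr1:28581849-28581873, minus strand, did not pass: CCTTTCTCCCCgccgcattcccggt
SNHG4, chr5:139274101-139274125, plus strand, did not pass: CCCTTTCCCCTCCggcctctgccgg
SNHG32, chr6:31834916-31834940, plus strand, did not pass: CTTTTTgcgaagtgggctcgtgggt
SNHG5, chr6:85678709-85678733, minus strand, did not pass: CTTTTacgtcggccttcgcgagcgt
SNHG19, chr16:2155334-2155358, minus strand, fell: CTTTTCggggtcgagtccgaggggg
ZFAS1, chr20:49278642-49278666, plus strand, did not pass: CTTTCgcgtctgcggtgcccggagt
Of the 6, SNHG19 fell and 5 did not pass. Each window is tied to 1 annotated start, so a host gene without the run in it may use another start. The 25 host genes had 1 window each. The 57 windows of protein-coding hosts belong to a list of 53 genes, so shares of the other sets are per window and not per gene. The E-box CACGTG, which reads the same on both strands and is bound by MYC and related factors, was in 2 of the 25 windows (SNHG7 and SNHG30), which is 8%, against 7.26% of all windows.

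The table also listed some of the guest RNAs themselves. The annotation placed 151 loci of snoRNAs and scaRNAs inside the 29 host genes, 84 of them in SNHG14, and 19 had a row in the table. Of these 19, 9 were listed at 0 in every library, 3 were below the minimum level and 7 were tested, of which 3 rose, none fell and 4 did not pass. SCARNA16, among the 3 that rose, was tested only because of its level in RRN3 siRNA (control mean 0.763 TPM). Its rise therefore adds no support to this count. Over all genes tested 11.2% rose and 19.0% fell, and a difference from these shares was not tested. A TPM value of so short an RNA may depend on how the library was made, and reads of unspliced host RNA across the intron cannot be told apart from the mature guest.

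SNORD99, which lies inside SNHG12, was 41.5, 24.5 and 28.5 TPM in control siRNA and 86.8, 99.5 and 96.4 TPM in RRN3 siRNA (log2 change 1.58, SE 0.18, limma adjusted p = 0.000574). Its lowest RRN3 siRNA library was above its highest control library, whereas its host SNHG12 did not pass. SNORD1C, inside SNHG16, was 30.9, 28.7 and 10.5 TPM against 42.4, 68.1 and 63.7 TPM (1.38, SE 0.38, limma adjusted p = 0.0274). Its call was lost without control siRNA replicate 2 (limma adjusted p = 0.0568) or with RRN3 siRNA replicate 2 or 3 left out (0.0938 and 0.0595), and with no filter on low values (0.0770), and the log2 change was 0.91 without control siRNA replicate 3. SCARNA16, inside SNHG20, was 2.29 TPM in control siRNA replicate 1 and listed at 0 in replicates 2 and 3, against 8.84, 9.17 and 9.99 TPM in RRN3 siRNA (limma adjusted p = 0.00235). Its control mean was 0.763 TPM, so it reached the minimum of 1 TPM only through its level in RRN3 siRNA. SCARNA16 also lies inside SEC14L1, which runs on the same strand and shares 11154 bases of span with SNHG20. SEC14L1 rose, from 38.4, 36.3 and 30.3 TPM to 52.0, 45.8 and 44.3 TPM (log2 change 0.43, limma adjusted p = 0.0261). SCARNA16 was not compared with SEC14L1. The calls of SNORD99 and SCARNA16 held in every alternative.

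The change of the guest minus that of its host was 1.79 for SNORD99 and 1.26 for SNORD1C on the log2(TPM + 1) scale. It was 2.64 for SCARNA16 with SNHG20 taken as its host. With SCARNA16 listed at 0 in 2 control libraries, its own change depends on the pseudocount, at 2.79 here and 5.03 with a pseudocount of 0.1. For each of these 3 an exact two-sided permutation test over the 6 libraries gave p = 0.1, the smallest possible, and 0.233 after adjustment over the 7 pairs compared. The other 4 guests did not pass and their groups overlapped. SCARNA13, inside SNHG10, ranged from 0 to 4.52 TPM, and SNORA71B, inside SNHG17, from 1.18 to 3.84 TPM. SNORD104, inside SNHG25, was 5.43 and 5.00 TPM and listed at 0 in control siRNA replicate 3, and in RRN3 siRNA it was listed at 0 except for 18.4 TPM in replicate 3. SNORA73B, inside SNHG3, ranged from 0 to 4.62 TPM. SNORA74A and SNORA74D, inside SNHG4, and SNORA17B, inside SNHG7, were above 0 in only 1 or 2 libraries each, at up to 1.67, 1.12 and 3.18 TPM.

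**Figure D4:**
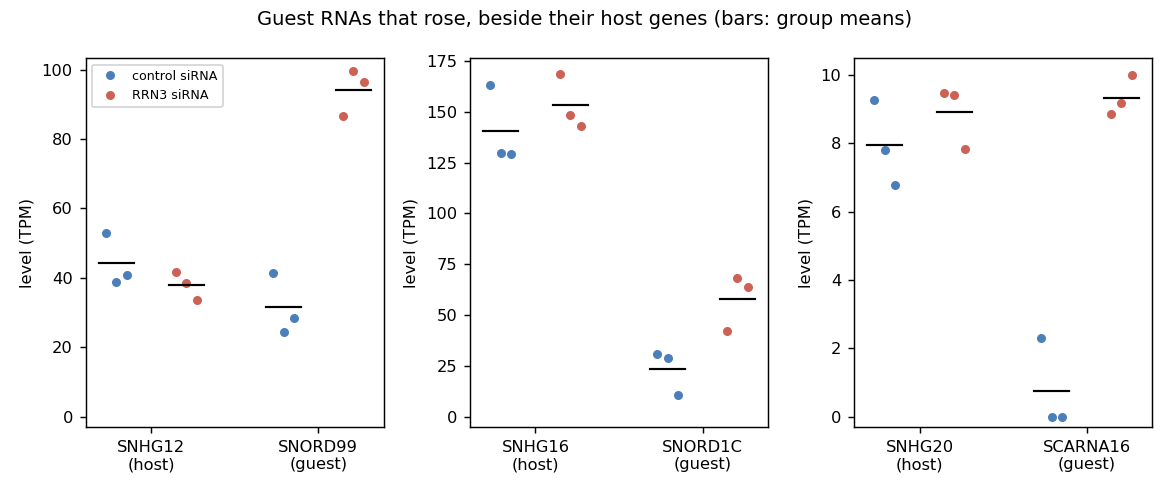
Level in TPM (linear axes from 0) of the 3 guest RNAs that rose and of their host genes, 1 panel per pair; points are libraries (blue control siRNA, red RRN3 siRNA) and bars are group means. In each panel the red points of the guest lie above all of its blue points, while those of the host overlap with the blue ones. SCARNA16 reached the minimum level for testing only through its red points.

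Some host genes start back to back with a protein-coding gene. SNHG1 starts 188 bases from SLC3A2, the heavy chain of several amino acid transporters, which was 274, 271 and 278 TPM in control siRNA and 186, 194 and 198 TPM in RRN3 siRNA (log2 change -0.51, SE 0.06, limma adjusted p = 0.000922). Host and neighbour were both lower by a similar amount, with -0.49 for SNHG1. SNHG19 starts 340 bases from TRAF7, a ubiquitin ligase, which was 99.4, 112 and 102 TPM against 113, 103 and 96.0 TPM (log2 change -0.01, interval -0.21 to 0.20, limma adjusted p = 0.973). Here the host fell and the interval of its neighbour did not reach the change of the host. SNHG22 starts 63 bases from ACAA2, a thiolase of mitochondrial fatty acid oxidation, which was 30.5, 26.8 and 21.1 TPM against 13.1, 11.2 and 12.1 TPM (log2 change -1.04, SE 0.15, limma adjusted p = 0.00170), so SNHG22 rose and ACAA2 fell.

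A pair of neighbours of host genes that did not pass is given after their values were seen. RPS2, a ribosomal protein gene that starts 99 bases from SNHG9 and hosts snoRNAs itself, was 6191, 6840.2 and 7345 TPM against 3611, 3830.2 and 4149 TPM (log2 change -0.81, limma adjusted p = 0.000665), with -0.17 for SNHG9. ZNFX1, whose start lies 248 bases from that of ZFAS1 with 249 bases of shared exon on opposite strands, was 20.6, 19.5 and 15.6 TPM against 36.9, 32.4 and 30.4 TPM (log2 change 0.81, limma adjusted p = 0.00310), with -0.24 for ZFAS1. The difference between a host gene and its neighbour was not tested in any of these pairs.

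**Figure D5:**
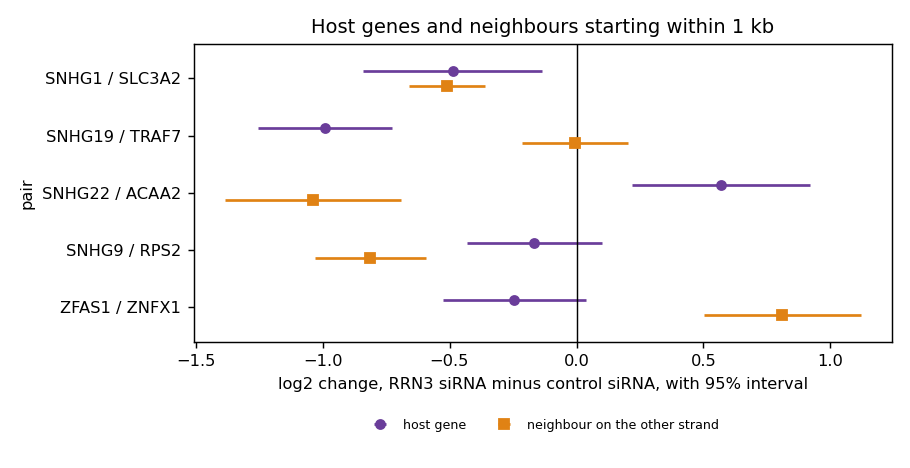
Log2 change, RRN3 siRNA minus control siRNA, of 5 host genes (purple circles) and the genes that start within 1 kb on the other strand (orange squares), with 95% intervals from the limma fit; each row is a pair. The symbols nearly coincide for SNHG1 and SLC3A2 and lie on opposite sides of 0 for SNHG22 and ACAA2.

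Genes that act with the host genes were read from lists of pathway members. Over all genes tested 11.2% rose and 19.0% fell. The counts of the lists below were not tested for a difference from these shares. Of the 8 core snoRNP proteins 1 rose, 1 fell and 6 did not pass, with a median log2 change of 0.08. FBL, the methyltransferase of C/D snoRNPs, was 532, 571 and 618 TPM in control siRNA and 319, 337 and 359 TPM in RRN3 siRNA (log2 change -0.76, SE 0.08, limma adjusted p = 0.000470). NOP10, a small H/ACA protein, was 306, 296 and 330 TPM against 382, 412 and 448 TPM (0.41, SE 0.08, limma adjusted p = 0.00769). The 2 thus went opposite ways in all libraries, and the list median turned to -0.09 without RRN3 siRNA replicate 1.

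Of 15 snoRNP assembly factors 1 rose, 3 fell and 11 did not pass (median 0.06, and -0.12 without RRN3 siRNA replicate 1, -0.04 without control siRNA replicate 3 and -0.14 without both libraries numbered 1). TCOF1, the nucleolar factor treacle, fell from 41.7 ± 3.81 to 24.4 ± 1.95 TPM (n = 3 each, limma adjusted p = 0.00168). The helicases RUVBL1 and RUVBL2, which act as 1 complex, moved apart, from 128 ± 5.71 to 150.2 ± 1.90 TPM (limma adjusted p = 0.0351) and from 214 ± 15.3 to 161 ± 3.10 TPM (limma adjusted p = 0.00545). The rise of RUVBL1 was lost with no variance trend, without control siRNA replicate 1 or 3, with any single RRN3 siRNA library left out and without both libraries numbered 1, where none of the 15 rose. ZNHIT3, a C/D assembly protein, fell from 61.0 ± 6.30 to 44.9 ± 1.34 TPM (limma adjusted p = 0.0127). Of 7 tested genes of snoRNA release and trimming TOE1, a 3′ deadenylase, fell from 13.8 ± 0.597 to 8.55 ± 0.449 TPM (limma adjusted p = 0.00472) and 6 did not pass (median -0.04, 0.04 with median-of-ratios scaling and 0.01 with quantile normalization, and between -0.19 without RRN3 siRNA replicate 1, where 3 fell, and 0.06 without control siRNA replicate 1 when single libraries were left out).

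Of 21 factors of nonsense-mediated decay, the route by which several spliced host RNAs are removed, none rose, 4 fell and 17 did not pass (median -0.09, and 0.03 without RRN3 siRNA replicate 3). Beside these 4 of 21, 19.0% of all genes tested fell. EIF4A3, the helicase core of the exon junction complex, fell from 325 ± 23.8 to 197 ± 17.4 TPM (limma adjusted p = 0.000968), and RNPS1 and CASC3, which bind to that complex, fell as well, RNPS1 from 224 ± 10.6 to 167 ± 10.3 TPM and CASC3 from 52.3 ± 4.19 to 38.2 ± 1.33 TPM (limma adjusted p = 0.00497 and 0.00874). The other proteins of that complex in the list did not pass, with a log2 change of 0.31 for MAGOH, -0.27 for MAGOHB and -0.09 for RBM8A (limma adjusted p = 0.1503, 0.212 and 0.633). SMG5, which recruits RNA decay enzymes to UPF1, fell from 44.3 ± 2.70 to 35.2 ± 0.889 TPM (limma adjusted p = 0.0246). UPF1, the central helicase of the pathway, did not pass at 43.7 ± 4.93 and 37.6 ± 2.53 TPM (limma adjusted p = 0.197).

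Of 11 regulators of pyrimidine-start mRNAs 1 rose, 2 fell and 8 did not pass (median -0.03, and 0.04, 0.00 and 0.00 with median-of-ratios scaling, quantile normalization and TPM rescaled after dropping mitochondrial and ribosomal protein genes, and between -0.22 without RRN3 siRNA replicate 1 and 0.10 without control siRNA replicate 1 when single libraries were left out). MLST8, a subunit of both mTOR complexes, was 42.0, 51.9 and 43.7 TPM against 15.5, 13.002 and 12.8 TPM (log2 change -1.67, SE 0.12, limma adjusted p = 8.83e-05). EIF4EBP1, the inhibitor of cap-dependent translation that mTOR switches off, fell from 158 ± 14.7 to 103 ± 3.33 TPM (limma adjusted p = 0.00167). LARP4, a poly(A)-tail binding protein, rose from 3.598 ± 0.385 to 5.73 ± 1.13 TPM (limma adjusted p = 0.0459), and none of the 11 rose with no filter on low values, with a minimum mean TPM of 5, or when control siRNA replicate 2 or 3 or RRN3 siRNA replicate 1 or 2 was left out.

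Of 53 protein-coding snoRNA hosts, which make a protein from their exons, 1 rose, 15 fell and 37 did not pass, with a median log2 change of -0.08. With median-of-ratios scaling 3 rose and 8 fell (median -0.00), and rescaling without mitochondrial and ribosomal protein genes left 29 of them tested, of which 2 rose and 6 fell (median 0.00). RPL3, a protein of the large ribosomal subunit, was 3149.96, 3175 and 3116 TPM in control siRNA and 1741, 1752 and 1743 TPM in RRN3 siRNA (log2 change -0.85, limma adjusted p = 8.85e-05). CWF19L1 fell from 35.0 ± 1.38 to 17.3 ± 0.761 TPM (limma adjusted p = 0.000282), SNRPB, a shared protein of spliceosomal particles, from 608 ± 34.6 to 354 ± 26.9 TPM (limma adjusted p = 0.000414), and EEF2, the elongation factor of ribosomal translocation, from 2138 ± 214 to 1228 ± 30.9 TPM (limma adjusted p = 0.000472). The share that fell, 15 of 53 against 6 of the 26 host genes above and 19.0% of all genes tested, was not tested for a difference.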

How the data were processed

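RNA sequencing libraries of HCT116 cells were compared between 3 cultures given a control siRNA and 3 given an siRNA against RRN3, and groups and replicate numbers come from the labels. Biological replicates are stated in the series' design text. The deposited table gives TPM per gene symbol, a length-scaled abundance relative to the whole library, computed by the authors. STAR, Salmon and GRCh38 are named, per the submitters' processing notes, without their roles, and no source used here gives versions, annotation, strand setting or filters. TPM keeps no depth, so no counting interval was computed, and a listed 0 may be an estimate that failed. Of 25662 genes 3786 were listed at 0 in all libraries.

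The 12157 genes whose mean TPM reached 1 were fitted as log2(TPM + 1) on the group alone with limma 3.58.1 in R 4.3.3 (eBayes with an intensity trend, Benjamini-Hochberg adjustment over all genes tested, threshold 0.05). A gene is said to have risen or fallen only past that threshold. Before use the fit was run on simulated data with known changes, in which genes varied independently of each other. Host genes here deviated together, so that run does not give the error rate of their calls. RRN3 and the difference between guest and host were tested with exact two-sided permutation tests. Summaries used Python 3.11.15, pandas 2.3.3 and scipy 1.17.1, and plots matplotlib 3.10.9.

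Gene spans, exons and guests came from GENCODE release 29 (GRCh38), with guests missing there taken from the RefSeq gene table. All 29 host genes and 25595 of the 25662 symbols were matched. Promoter windows are RefSeq's (GRCh38.p14), from 250 bases before to 50 after the annotated start. GC content was known for 12144 tested genes (99.9%), and a loess fit (span 0.3) in each library was used to take out the GC trend.

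The host genes, the pathway lists and the rules were chosen with earlier results of these data known, and the lists support nothing on their own. Tested host genes are named with their values in every library. Of each list up to 4 changed genes with the smallest adjusted p are named, then guests above 0 in any library, and genes that overlap a changed host gene or start within 1 kb of it on the other strand. UPF1, MAGOH, MAGOHB, RBM8A, RPS2, ZNFX1 and SEC14L1 fall outside this rule and were chosen after their values were seen. The 17 alternatives were a pseudocount of 0.1, no filter, a minimum mean TPM of 5, median-of-ratios scaling, quantile normalization, TPM scaled again after dropping mitochondrial and ribosomal protein genes, no variance trend, a replicate block, the GC trend removed with and without that block, each library left out in turn, and both libraries numbered 1 left out.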

Additional observations from a re-analysis of the deposited data

How the results depend on the processing

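SNHG19, SNHG7 and SNHG6 fell in all 17 alternatives. Of 555 values for single host genes and guests under the alternatives, 485 kept their direction and their side of the threshold, 29 lost a call, 12 gained one and 29 changed sign, all 29 of them for genes that did not pass. Where a call or sign changed, the cause was not tested. With 3 libraries a group, changes near that of SNHG29 (0.26) were called in some alternatives and not in others. TPM holds no depth, so the counting error of low genes is unknown.

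The count of host genes that rose was 2 and became 1 with no filter on low values, with median-of-ratios scaling, with TPM scaled again after dropping mitochondrial and ribosomal protein genes and with no variance trend. Leaving out single libraries gave 0 to 2 that rose, 4 to 7 that fell and a median log2 change of -0.32 to -0.10. The median of -0.21 became -0.13 with median-of-ratios scaling, -0.15 with quantile normalization, -0.17 with rescaled TPM and -0.10 without both libraries numbered 1, where the same 8 host genes were called. Over all genes 2205 rose with quantile normalization, and leaving out single libraries gave 2230 to 4230 calls (2230 without RRN3 siRNA replicate 2), with 785 to 1268 that rose and 1445 to 2977 that fell. SNHG26 rose with quantile normalization (limma adjusted p = 0.0444), and SNHG30 fell without the variance trend (limma adjusted p = 0.0463). The guest SCARNA13 fell without control siRNA replicate 3 (limma adjusted p = 0.0301).

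Libraries with the same replicate number were not shown to be pairs. The correlations of their deviations from the group means were 0.42, 0.10 and 0.16 for numbers 1, 2 and 3 (0.0954 for number 2, under the limit of 0.1), and control siRNA replicate 2 correlated best with RRN3 siRNA replicate 3 (0.19). With a replicate block 5546 genes were called, of which 2295 rose, and 2 host genes rose and 7 fell (SNHG30 was added, limma adjusted p = 0.0405). With the GC trend removed and the replicate block 5981 were called, 2567 rose, and 11 host genes fell, with SNHG12, SNHG21, SNHG30, SNHG8 and ZFAS1 added.

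The sign changes were as follows, as log2 changes. With a pseudocount of 0.1 SCARNA13 (-0.17) became 0.49, and with median-of-ratios scaling SNHG32 (-0.05) became 0.025. With the GC trend removed, with or without the replicate block, EPB41L4A-AS1 (0.01) became -0.045 and SNHG4 (0.04) became -0.024. Without both libraries numbered 1 EPB41L4A-AS1 became -0.0048, SNHG32 0.049, SNHG5 (-0.10) 0.0055, SCARNA13 0.053, SNORA71B (0.13) -0.23, SNORD104 (-0.33) 0.85 and SNORA73B (-0.75) 0.11. Leaving out single libraries gave ranges that crossed 0 for EPB41L4A-AS1 (-0.10 to 0.088), SNHG15 (-0.032 to 0.076), SNHG32 (-0.11 to 0.0097), SNHG4 (-0.071 to 0.15), SNHG5 (-0.29 to 0.023), SCARNA13 (-0.90 to 0.34), SNORA71B (-0.16 to 0.42) and SNORD104 (-1.76 to 0.38).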
